A study of Mus musculus with 24 samples.

Results

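Livers of JNK1Δhepa mice (3 arrays) were compared with livers of control mice (3 arrays) 48 h after bile duct ligation (BDL). These were 6 of the 24 arrays of the series, and all 18820 genes measured were compared. JNK1Δhepa mice carried floxed Jnk1 alleles (JNK1f/f) together with a Cre transgene under an albumin promoter that becomes active after birth, so that the deletion is meant to occur in hepatocytes and to leave other liver cells with the gene. Control mice carried the JNK1f/f alleles without that transgene. Both groups were male, of C57/BL6 background and 8 weeks old, and had the common bile duct tied at 7 to 8 weeks of age. The other 18 arrays were 3 each from livers of JNK1-/- mice after BDL for 48 h and control mice after sham surgery at 48 h. The rest were 3 each from JNK1Δhepa, JNK1-/-, control BDL and control sham mice at 28 d, aged 12 weeks. The JNK1-/- mice were bought separately, and no sham-operated JNK1Δhepa group is among the 8 groups. Each array held total liver RNA, so fewer cells of a type and less RNA per cell cannot be told apart. Animals are known only by a replicate number, so p-values measure the spread between these arrays, which may be technical.

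JNK1, the product of Mapk8, is a stress-activated kinase. MAP kinase kinases switch it on after cytokine, bile acid or oxidative stress, and it phosphorylates Jun and related AP-1 transcription factors. In the liver it has been linked to hepatocyte death, proliferation, fat metabolism and the inflammatory response, and MAP kinase phosphatases switch it off. Ligation of the bile duct retains bile in the liver, which injures hepatocytes, draws in neutrophils and monocytes and starts the growth of bile ducts.

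Values were log2 intensities per gene, and a difference is JNK1Δhepa minus control in log2 units unless stated otherwise. Correlations between arrays over all genes were 0.99346 to 0.99632 within JNK1Δhepa BDL 48 h, 0.99199 to 0.99494 within control BDL 48 h and 0.99127 to 0.99565 between them, so the 3 ranges overlapped. Alb, the albumin gene that defines hepatocytes, averaged 13.37 ± 0.04 in JNK1Δhepa and 13.35 ± 0.01 in control livers (SD, n = 3 each). On the arrays labelled control sham 48 h Mapk8 read 6.93, 6.67 and 6.86, close to the JNK1Δhepa arrays, so a direction drawn from those arrays carries that reading with it.

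The targeted gene was lower on every JNK1Δhepa array at 48 h than on every control BDL array of that time. Mapk8 read 6.77, 6.81 and 6.76 in JNK1Δhepa livers, against 7.47, 7.49 and 7.37 in control livers. The 2 groups did not overlap and each varied little. The difference was -0.66 (SE 0.22, 95% interval -1.12 to -0.21), a 1.58-fold lower intensity. With 18820 genes tested, however, its adjusted p by limma was 0.9995. At 28 d the Mapk8 difference was smaller, at -0.33 (adjusted p = 0.513 by limma). In JNK1-/- livers after 48 h of BDL, Mapk8 read 5.33, 6.17 and 6.09, and JNK1Δhepa livers were higher than these by 0.91 (adjusted p = 0.0297). Where the Mapk8 probes lie relative to the deleted part is not given in the sources used here, so what remains cannot be read as intact transcript. The 2 related kinase genes differed by less than the spread between arrays. Mapk9, which encodes JNK2, was at 8.95, 8.94 and 9.11 in JNK1Δhepa livers, against 9.06, 8.95 and 8.94 in control livers. Mapk10, which encodes the mainly neuronal JNK3, was near the bottom of the scale at 3.10 to 3.25 in JNK1Δhepa and 3.11 to 3.26 in control livers.

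No gene passed an adjusted p of 0.05 by limma, 0 of 18820 (0%). At an unadjusted p under 0.05 there were 607 genes (3.23%), of which 215 were higher (1.14%) and 392 lower (2.08%) in JNK1Δhepa livers. A share of 0.05 is expected at that p where no gene differs, and 3.23% is not above it. The smallest adjusted p-values were 0.0977 for Igsf23, 0.457 for Nnt and 0.599 for Ceacam2. The arrays of the 2 groups did not overlap for 1857 genes (9.87%), 710 with JNK1Δhepa higher (3.77%) and 1147 with it lower (6.09%). For 3 against 3 arrays without a difference the expected share is 0.1, and 9.87% is not above it. Only 42 genes (0.223%) differed by 2-fold or more, 13 higher and 29 lower, and 16 of them did not overlap. In 19 of the 29 lower genes the highest of the 6 arrays was control replicate 3. For 18152 genes, or 96.451%, the 95% interval of the difference lay within 2-fold in either direction, and for 84.32% within 1.5-fold. The median SE was 0.129. Among the alternatives run, a call was reached only when single arrays were left out or given unequal weight. Without JNK1Δhepa replicate 3, Clec2h passed, and without control replicate 1, Igsf23, Sele and Il23a passed. With array weights, Sae1, Igsf23 and Ceacam2 passed at an adjusted p of 0.0035.

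**Figure D1:**
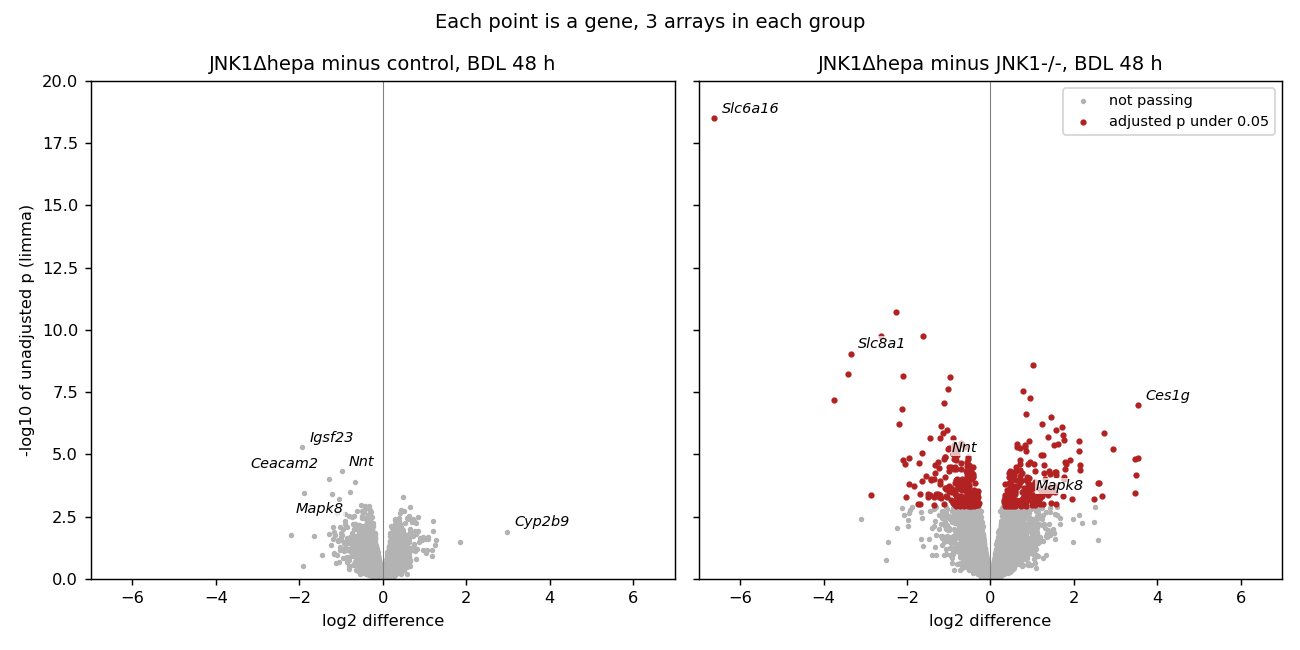
Log2 difference (x axis) against -log10 of the unadjusted limma p (y axis) for 18820 genes, JNK1Δhepa minus control at the left and JNK1Δhepa minus JNK1-/- at the right, all after BDL for 48 h with 3 arrays in each group. No gene is coloured as passing at the left, and 460 are at the right.

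The genes named next are the 10 in each direction with the smallest unadjusted p among genes whose groups did not overlap, since none passed the test. Igsf23, an immunoglobulin superfamily member, read 5.29, 5.34 and 5.29 in JNK1Δhepa livers, against 6.85, 7.68 and 7.18 in control livers. The JNK1Δhepa arrays lay together near the low end of the scale, well below all control arrays. The difference was -1.93 (SE 0.31, adjusted p = 0.0977), 3.81-fold lower, and stayed between -2.12 and -1.71 when any 1 of the 6 arrays was left out. Ceacam2, a cell adhesion molecule of the carcinoembryonic antigen family, read 4.88, 4.82 and 4.61 in JNK1Δhepa livers, against 5.97, 6.60 and 5.58 in control livers. This was a difference of -1.28 (SE 0.26, adjusted p = 0.599), with the control arrays spread more widely than the JNK1Δhepa arrays. Sae1 encodes a subunit of the enzyme that activates SUMO, a small protein attached to other proteins. It read 8.57, 8.50 and 8.67 in JNK1Δhepa livers, against 9.33, 9.58 and 9.17 in control livers, a difference of -0.78 (SE 0.18).

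Igsf23, Ceacam2 and Sae1 lie on chromosome 7, as do Qpctl and C5ar2, which are among the 10 higher genes. Qpctl, a glutaminyl cyclase of the Golgi, read 8.01, 8.13 and 7.94 in JNK1Δhepa livers, against 7.59, 7.52 and 7.52 in control livers. It was higher by 0.48 (SE 0.12, adjusted p = 0.9995), with little spread in either group. C5ar2, a receptor for complement fragments, read 7.08, 7.34 and 7.20 in JNK1Δhepa livers, against 6.56, 6.28 and 6.91 in control livers. Along chromosome 7 the gene order on assembly GRCm38.p6 is C5ar2, Sae1, Qpctl, Igsf23 and Ceacam2. Thus 5 of the 20 named genes lay on chromosome 7, which holds 8.77% of the tested genes with a known chromosome. The stretch from C5ar2 to Ceacam2 holds 162 tested genes, and 16 of them (9.88%) had an unadjusted p under 0.05 by limma, beside 3.23% of all genes. That stretch was drawn after the values were seen and its ends are 2 of the named genes, so the count is a description only. Over the whole chromosome, 16 of 1647 genes (0.971%) had an unadjusted p under 0.01 by limma, beside 100 of all genes (0.531%).

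For Igsf23, Ceacam2 and Qpctl the JNK1Δhepa arrays at 48 h lay at the level of the JNK1-/- arrays, and for Igsf23 and Ceacam2 the JNK1Δhepa arrays at 28 d lay within the range of the control arrays. Igsf23 read 5.50, 5.63 and 5.34 in JNK1-/- livers at 48 h, and JNK1Δhepa differed from them by -0.19 (SE 0.31, adjusted p = 0.846). At 28 d the JNK1Δhepa livers read 7.43, 7.09 and 7.24, against 7.13, 6.89 and 8.22 in control livers. Ceacam2 read 4.64, 4.76 and 4.34 in JNK1-/- livers at 48 h, and at 28 d 6.44, 6.39 and 6.44 in JNK1Δhepa livers against 5.22, 5.85 and 6.69 in control livers. Sae1 read 7.67, 8.21 and 8.39 in JNK1-/- livers at 48 h, the lowest of the 3 genotypes, and at 28 d its JNK1Δhepa difference was -0.06. Qpctl read 8.11, 8.09 and 8.10 in JNK1-/- livers at 48 h, and its JNK1Δhepa difference at 28 d was 0.45 (adjusted p = 0.0812). The change of the difference from 28 d to 48 h passed for no gene in the main limma fit. With array weights it passed by limma for 221 of all 18820 genes. Among these were Igsf23 (-2.19, adjusted p = 0.0163), Ceacam2 (-1.94, adjusted p = 0.00896), Sae1 (-0.84, adjusted p = 0.0235) and C5ar2 (1.01, adjusted p = 0.0303), but not Qpctl. JNK1-/- livers differed from the same control arrays after BDL for 48 h in 433 genes (2.3%), with differences of -1.74 for Igsf23 (adjusted p = 0.00493), -1.47 for Ceacam2 (adjusted p = 0.00485), -1.27 for Sae1 (adjusted p = 0.00071) and 0.56 for Qpctl (adjusted p = 0.0142).

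**Figure D2:**
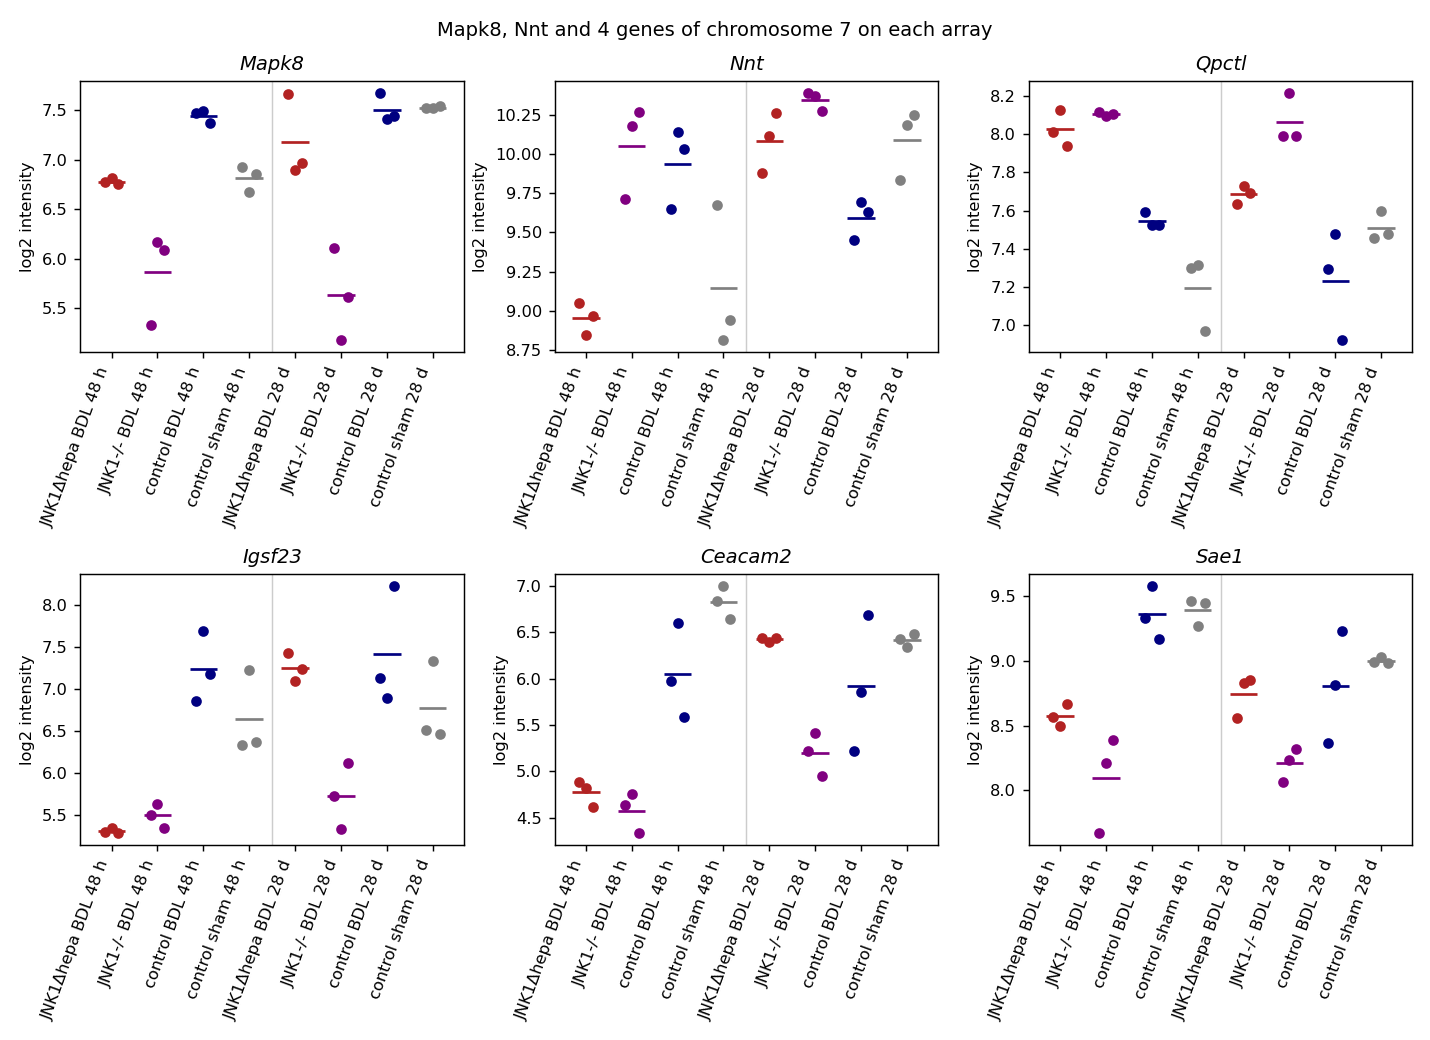
Log2 intensity (y axis) of Mapk8, Nnt and 4 genes of chromosome 7 on each array (points, with the group mean as a line), in the 8 groups (x axis). The JNK1Δhepa points at 48 h sit at the JNK1-/- level for Igsf23, Ceacam2 and Qpctl, and below both other BDL groups of 48 h for Nnt.

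Nnt followed another pattern. It encodes the mitochondrial transhydrogenase that makes NADPH, and a deletion in this gene is known from the C57BL/6J substrain. Nnt read 9.05, 8.84 and 8.97 in JNK1Δhepa livers, against 9.65, 10.14 and 10.03 in control livers, a difference of -0.99 (SE 0.19, adjusted p = 0.457). JNK1-/- livers at 48 h read 9.71, 10.18 and 10.27, and JNK1Δhepa livers were lower than these by 1.10 (log2 difference -1.10, adjusted p = 0.00394). At 28 d Nnt read 9.88, 10.12 and 10.26 in JNK1Δhepa livers, against 9.45, 9.70 and 9.63 in control livers, so that the difference ran the other way by 0.49. The change of the difference between the times, -1.48, had an adjusted p of 0.324 by limma. With array weights the change for Nnt was -1.495, with an adjusted p of 0.0163 by limma. On the arrays labelled control sham 48 h Nnt read 9.68, 8.81 and 8.94, of which 2 lay at the JNK1Δhepa level. The labels give C57/BL6 with no substrain, and the part of strain background in Nnt or in the genes of chromosome 7 was not tested.

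The other lower genes were smaller or less even differences. Mmp9, a gelatinase carried by neutrophils, read 5.41, 5.45 and 5.72 in JNK1Δhepa livers, against 6.11, 6.70 and 7.45 in control livers (difference -1.23, SE 0.29). The Mmp9 difference was -0.88 without control replicate 3 and -1.55 without control replicate 1. Nr1d2, which encodes the clock repressor REV-ERB beta, read 7.79, 8.10 and 7.48 in JNK1Δhepa livers, against 9.05, 8.52 and 8.97 in control livers (difference -1.06, SE 0.26). Both were also lower than in JNK1-/- livers, by a log2 difference of -1.18 for Mmp9 (adjusted p = 0.032) and -1.33 for Nr1d2 (adjusted p = 0.00909). Mirlet7d, the gene of a let-7 microRNA, differed by -0.53. Tipin, a protein of the replication fork, differed by -0.43, Rad52, of DNA break repair, by -0.38, and Krt33b, a hair keratin, by -0.34.

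Among the higher genes, Apoa4, an apolipoprotein of lipid transport, read 12.41, 12.51 and 12.54 in JNK1Δhepa livers, against 11.85, 12.29 and 12.00 in control livers, a difference of 0.44. Got1, the cytosolic aspartate aminotransferase, read 11.44, 11.68 and 11.16 in JNK1Δhepa livers, against 10.95, 10.52 and 10.27 in control livers, a difference of 0.85 (SE 0.25). Got1 was higher in JNK1-/- livers too, by 1.18 (adjusted p = 0.0172), against the same control arrays. Mrap, an accessory protein of the ACTH receptor, differed by 0.73 and exceeded its JNK1-/- level by 0.84 (adjusted p = 0.0497). Rcan2, a calcineurin regulator, differed by 0.58, Fkbp14, a folding enzyme of the endoplasmic reticulum, by 0.51, Gdf7, a BMP family ligand, by 0.30, and Mrs2, a mitochondrial magnesium channel, by 0.30. Try10, a trypsin gene, differed by 0.65, or by 0.41 without JNK1Δhepa replicate 3, and read highest, at 4.45, in JNK1Δhepa replicate 3, the array with the pancreas transcripts described below.

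Genes of 41 lists were then counted, 29 for pathways and 12 for cell types. None of the lists had a member that passed the test. With all arrays, counts of members at an unadjusted p under 0.05 by limma stand beside 2.08% of all genes lower and 1.14% higher. Inflammatory lists were among the 5 with the lowest medians. Of 27 cytokines and chemokines, 24 were lower in sign, 6 with an unadjusted p under 0.05 by limma and 0 higher at that p (2.08% and 1.14% of all genes), and the median difference was -0.30, beside -0.01 over all genes. All 16 NF-κB targets and adhesion genes were lower in sign, 6 of them at that p, with a median of -0.51. Arrays did not overlap, with JNK1Δhepa lower, for 5 of the 27 and 2 of the 16, beside 6.09% of all genes. With JNK1Δhepa higher this held for 1 of the 27 and 0 of the 16, beside 3.77% of all genes. Without control replicate 3 the medians were -0.13 in both lists, and 1 and 0 members were lower at that p. In that fit 536 of all 18820 genes were at that p, in either direction. Without JNK1Δhepa replicate 3 the medians were -0.24 and -0.33, and 4 and 2 members were lower at that p, beside 839 of all genes in either direction.

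Cxcl2, a chemokine that draws neutrophils, read 5.34, 5.06 and 3.99 in JNK1Δhepa livers, against 4.70, 7.00 and 9.31 in control livers. Control replicate 1 lay among the JNK1Δhepa arrays and control replicate 3 far above them. The difference of -2.21 (SE 0.84) became -1.05 without control replicate 3 and -3.36 without control replicate 1. Ccl2, which draws monocytes, read 7.35, 7.45 and 7.54 in JNK1Δhepa livers, against 7.58, 8.68 and 9.65 in control livers. Ccl7, a related chemokine, read 5.83, 5.84 and 5.67 in JNK1Δhepa livers, against 6.14, 6.70 and 7.79 in control livers. These 2 genes did not overlap, with differences of -1.19 and -1.10, but their control arrays ran in the same order and were widely spread. Without control replicate 3 the differences were -0.68 for Ccl2 and -0.64 for Ccl7. Tnf, the cytokine that activates NF-κB and JNK, read 4.36, 4.73 and 3.92 in JNK1Δhepa livers, against 4.64, 5.16 and 5.81 in control livers. Tlr2, a receptor for bacterial lipoproteins, differed by -1.16 and Tnfaip3, an inhibitor of NF-κB signalling, by -0.96, both with control replicate 1 inside the range of the JNK1Δhepa arrays. Without control replicate 3 the differences were -0.46 for Tlr2, -0.36 for Tnfaip3 and -0.56 for Tnf (-0.87 with all arrays).

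Cxcl10, a chemokine induced by interferon and NF-κB, read 7.88, 8.19 and 8.26 in JNK1Δhepa livers, against 8.36, 9.92 and 11.02 in control livers. It did not overlap and differed by -1.66 (SE 0.65), or by -1.03 without control replicate 3. It was the 1 of 25 interferon response genes with an unadjusted p under 0.05 by limma, and that list had a median of -0.13. Its promoter is shown because it holds the AP-1 motif TGANTCA, the kind of site that Jun binds, in the 250 bases before the start of the gene as RefSeq gives it. The stretch below lies at chr5:92348900-92349019 on the minus strand of GRCm38.p6, with the motif match in capitals beginning 74 bases before the start.
Cxcl10: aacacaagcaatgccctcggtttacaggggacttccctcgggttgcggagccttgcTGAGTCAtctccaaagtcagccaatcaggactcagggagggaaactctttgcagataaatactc
Searched on both strands, the motif was found in 874 of the 14749 tested genes with a promoter listed (5.93%), and in 0 of the 11 listed among the 20 named genes. The windows of Cxcl2 and Tnf held none. A match describes letters only.

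Neutrophil markers had the lowest median of all lists. Of 13 measured, 11 were lower in sign, 6 with an unadjusted p under 0.05 by limma (2.08% of all genes), and the median was -0.62. Summed intensities of the list were 412 to 463 in JNK1Δhepa livers, against 447 to 1725 in control livers, the highest being control replicate 3. S100a9, a calcium-binding protein that fills the neutrophil cytosol, read 6.43, 6.22 and 5.88 in JNK1Δhepa livers, against 6.25, 7.11 and 8.72 in control livers. Cxcr2, the receptor for Cxcl2, read 5.55, 5.64 and 5.61 in JNK1Δhepa livers, against 5.59, 6.34 and 7.94 in control livers. Csf3r, the receptor for granulocyte colony-stimulating factor, differed by -0.71. Without control replicate 3 the differences were -0.50 for S100a9, -0.37 for Cxcr2 and -0.28 for Csf3r, beside -1.18, -1.03 and -0.71 with all arrays. Only Mmp9 did not overlap, 1 of 13 members, beside 6.09% of all genes lower without overlap. Without control replicate 3 the median was -0.21 and 1 member was lower at that p. Without JNK1Δhepa replicate 3 the median was -0.59 and 4 members were lower at that p. Against JNK1-/- livers the neutrophil median was -1.05, with 2 members called lower in JNK1Δhepa and 0 higher. Over all genes that comparison called 1.2% lower and 1.24% higher. The neutrophil genes moved with the cytokine and NF-κB lists from array to array, and their part in those lists was not tested. Macrophage and Kupffer cell markers had a median of 0.07 over 22 genes and summed intensities of 11499 to 11938 in JNK1Δhepa and 11591 to 11692 in control livers.

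**Figure D3:**
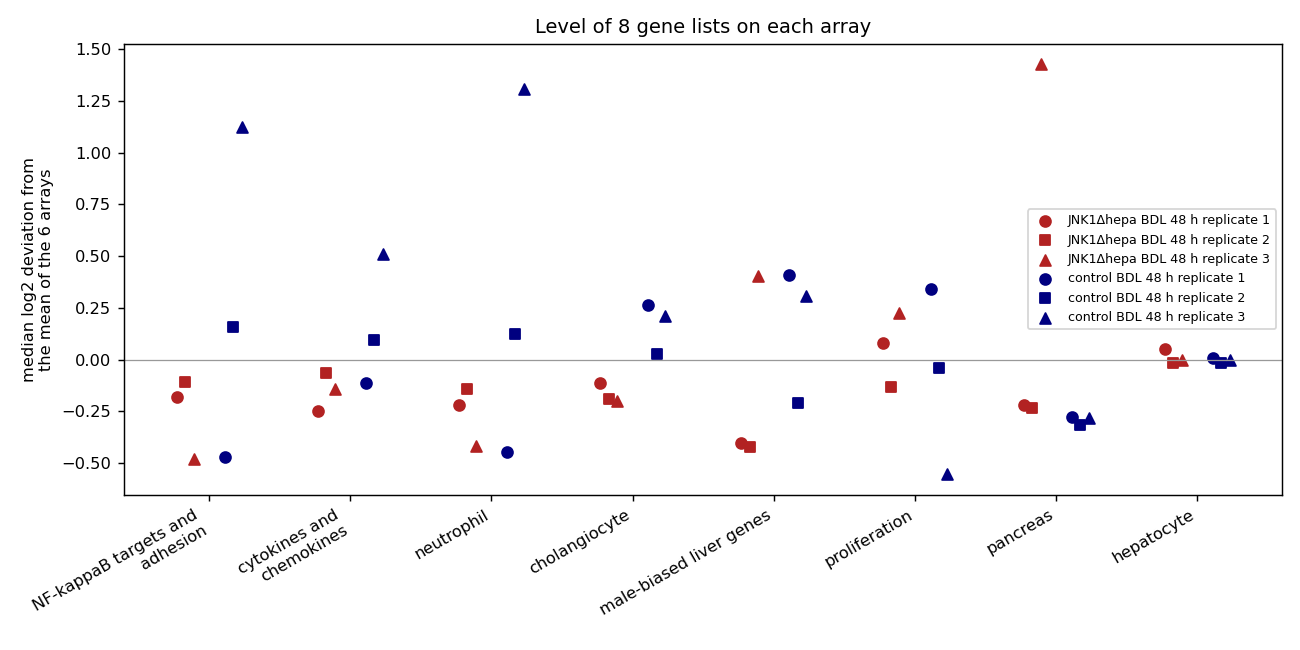
Median log2 deviation of 8 gene lists (x axis) from the mean of the 6 arrays (y axis), for each JNK1Δhepa array and each control array after BDL for 48 h, with the replicate number as the symbol. Control replicate 3 stands highest for the 3 inflammatory lists, JNK1Δhepa replicate 3 for pancreas, and the hepatocyte list lies near 0 on all 6 arrays.

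Genes of the JNK pathway gave no call. Jun, the main substrate and itself an AP-1 target, read 10.41, 10.16 and 10.15 in JNK1Δhepa livers, against 9.96, 10.34 and 10.26 in control livers. The groups overlapped, and the difference was 0.05 with a 95% interval of -0.54 to 0.64. Of 19 AP-1 and immediate early genes, 2 had an unadjusted p under 0.05 by limma, both lower (2.08% of all genes). The median of the 19 was -0.22, or -0.02 without control replicate 3. The 2 genes are given next. They were Ier3, an early response gene (5.09, 5.16 and 4.47 in JNK1Δhepa livers, against 4.62, 5.79 and 7.54 in control livers), and Myc, the growth regulator (difference -0.87). Ier3 differed by -1.08, and leaving out control replicate 3 gave -0.30 for Ier3 and -0.53 for Myc. The 15 JNK and p38 kinases and their upstream kinases had a median of -0.01, and Mapk8 was the 1 member lower at that p. Of 12 MAP kinase phosphatases, 1 was lower at that p, Dusp16, which acts on JNK, at 9.19, 8.91 and 9.30 in JNK1Δhepa livers, against 9.40, 9.34 and 9.87 in control livers. Of 18 cell death regulators, 1 was lower at that p, Bid, which links death receptors to mitochondria, at 7.99, 8.02 and 8.09 in JNK1Δhepa livers, against 8.23, 8.30 and 8.76 in control livers. Dusp16 and Bid each differed by -0.40, and by -0.24 and -0.23 without control replicate 3. None of 14 p53 targets was at that p, and their median was 0.01.

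Stress and acute phase lists had medians between -0.13 and 0.07. Of 22 NRF2 and oxidative stress genes, 20 were lower in sign, with a median of -0.13. Of these, 2 were lower at an unadjusted p under 0.05 by limma (2.08% of all genes). One was Slc7a11, the cystine importer that feeds glutathione synthesis, at 4.68, 5.78 and 4.80 in JNK1Δhepa livers, against 5.90, 6.00 and 7.23 in control livers. The other was Gstp1, a glutathione transferase, with a difference of -0.29, which is also in the male-biased list described below. Psat1, of serine synthesis, differed by -0.69 and was the 1 of 21 genes of the endoplasmic reticulum and integrated stress response at that p. The 11 heat shock genes had a median of -0.04. Of 26 acute phase and metallothionein genes, 0 were at that p, and the median was 0.07. Without JNK1Δhepa replicate 3 the median was 0.19, with 5 members higher and 0 lower at that p. In that fit 839 of all 18820 genes were at that p, in either direction.

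The 21 hepatocyte markers, genes of the main cell type of the liver, had a median difference of 0.02, none with an unadjusted p under 0.05 by limma, and summed intensities of 122603 to 125375 in JNK1Δhepa and 118822 to 121883 in control livers. Of 16 bile acid synthesis genes, 1 was lower at that p, Cyp7b1, the oxysterol hydroxylase of the alternative pathway, at 7.66, 7.88 and 9.08 in JNK1Δhepa livers, against 9.21, 8.50 and 8.92 in control livers. Of 20 bile acid and anion transporters, 1 was higher at that p, Abcc6, an ATP-dependent efflux transporter, at 8.90, 8.94 and 8.98 in JNK1Δhepa livers, against 8.48, 8.77 and 7.31 in control livers. Abcc6 did not overlap, but its control arrays spread by more than the difference of 0.75, which was 0.31 without control replicate 3. Cyp7b1 differed by -0.67, or by -0.40 without JNK1Δhepa replicate 1 and -1.11 without JNK1Δhepa replicate 3. Ppard, a nuclear receptor for fatty acids, differed by 0.65, or by 0.42 without JNK1Δhepa replicate 3, and was the 1 of 19 nuclear receptors and their targets at that p.

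Lipid and sugar metabolism lists had medians between -0.06 and 0.05. The medians were 0.05 for 20 fatty acid oxidation genes, 0.04 for 32 fatty acid and triglyceride synthesis genes, -0.06 for 17 cholesterol synthesis genes and 0.02 for 21 genes of glucose and insulin signalling. In the second of these lists 2 genes had an unadjusted p under 0.05 by limma. Dgat2, which makes triglycerides, read 11.27, 11.16 and 11.25 in JNK1Δhepa livers, against 11.38, 11.50 and 11.72 in control livers. Plin4, a lipid droplet coat protein, read 6.30, 6.17 and 6.13 in JNK1Δhepa livers, against 5.38, 5.60 and 5.70 in control livers. The groups did not overlap for either gene, and Dgat2 was the lower and Plin4 the higher in JNK1Δhepa. In the other 3 lists 0 genes were at that p.

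Sex-biased liver genes varied widely between arrays of 1 group. Of 21 genes known to be higher in male mouse liver, 19 were lower in sign, with a median of -0.35. Of these, 4 were lower at an unadjusted p under 0.05 by limma (2.08% of all genes). The list deviated by -0.40, -0.42 and 0.40 on the JNK1Δhepa arrays, against 0.41, -0.21 and 0.31 on the control arrays, so the groups overlapped. Hsd3b5, a steroid dehydrogenase of male liver, read 4.16, 4.57 and 8.63 in JNK1Δhepa livers, against 9.39, 5.29 and 7.02 in control livers. Elovl3, a fatty acid elongase of the same list, read 6.87, 7.26 and 10.64 in JNK1Δhepa livers, against 9.88, 8.30 and 10.12 in control livers. JNK1Δhepa replicate 3 was the high array of its group for both genes. Without JNK1Δhepa replicate 3 the list median was -0.56, and 12 members were lower at that p. In that fit 839 of all 18820 genes were at that p, in either direction. Of 15 genes higher in female liver, 1 was higher at that p, Cyp2b9, a cytochrome P450, at 10.11, 6.81 and 6.74 in JNK1Δhepa livers, against 5.58, 4.51 and 4.63 in control livers. It did not overlap, and its difference of 2.98 (SE 1.09) was 1.87 without JNK1Δhepa replicate 1. Cyp2b9 had a JNK1Δhepa difference of 2.91 at 28 d as well, which did not pass (adjusted p = 0.217). The related Cyp2b10 read 7.22, 6.71 and 7.29 in JNK1Δhepa livers, against 6.00, 5.44 and 6.69 in control livers. Over 26 cytochrome P450 genes of families 1 to 3 the median was -0.03, with Cyp2b9 the 1 member at that p.

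Proliferation, bile duct and scar genes gave no call either. Of 28 proliferation genes, 2 had an unadjusted p under 0.05 by limma, both higher (1.14% of all genes), and the median was 0.09. Cdc20, an activator of the anaphase-promoting complex, read 5.95, 5.66 and 5.92 in JNK1Δhepa livers, against 5.73, 5.12 and 4.74 in control livers. Aurka, a mitotic kinase, differed by 0.42 with overlapping groups. Control replicate 3 was lowest in both. Without it the differences were 0.42 for Cdc20, beside 0.65 with all arrays, and 0.21 for Aurka. The list median without it was -0.10, with 3 members lower and 0 higher at that p. In that fit 536 of all 18820 genes were at that p, in either direction. Of 17 cholangiocyte markers, 14 were lower in sign, 1 of them at that p (2.08% of all genes), the median was -0.31, and 5 did not overlap with JNK1Δhepa lower (6.09% of all genes). Krt23, a keratin of reactive ducts, read 4.44, 3.96 and 5.13 in JNK1Δhepa livers, against 6.57, 5.54 and 5.32 in control livers. Elf3, an epithelial transcription factor, read 6.83, 6.78 and 6.53 in JNK1Δhepa livers, against 7.25, 7.62 and 8.07 in control livers. Krt19, the classical duct keratin, overlapped, at 5.54, 5.82 and 5.80 in JNK1Δhepa livers, against 7.05, 5.64 and 7.12 in control livers. The cholangiocyte median was -0.32 without control replicate 3, and -0.33 without JNK1Δhepa replicate 3.

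The 27 collagens and matrix genes had a median of 0.09 with 0 at an unadjusted p under 0.05 by limma, and the 20 stellate cell and myofibroblast markers a median of 0.13 with 1 higher, Hand2, a transcription factor of stellate cells (difference 0.41, or 0.27 without control replicate 1). Of 25 TGF-β and BMP genes, 1 was lower at that p, Bmp4, a ligand, at 6.66, 6.61 and 6.98 in JNK1Δhepa livers, against 7.79, 7.21 and 7.84 in control livers. The arrays did not overlap for 5 of these 25 genes, all lower (6.09% of all genes), among them Smad3, a signal transducer, and Tgfbr1, a receptor, with differences of -0.24 and -0.20. Matrix remodelling had 2 of 21 genes lower at that p (2.08% of all genes), Mmp9 and Plaur, the urokinase receptor. Plaur differed by -0.66, or by -0.24 without control replicate 3. Of 20 growth factors and EGF receptor ligands, 1 was lower at that p, Hbegf, an EGF receptor ligand, with a difference of -0.56 and overlapping groups. Among 19 clock genes Nr1d2 was the 1 lower at that p, and 5 did not overlap with JNK1Δhepa lower (6.09% of all genes) and 1 with it higher (3.77%). Per3, a period gene, was another of these at 5.09, 5.26 and 5.46 in JNK1Δhepa livers, against 6.86, 5.54 and 5.99 in control livers, a difference of -0.86, or of -0.50 without control replicate 1. The time of day at which livers were taken is not given in the sources used here, and its part was not tested.

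**Figure D4:**
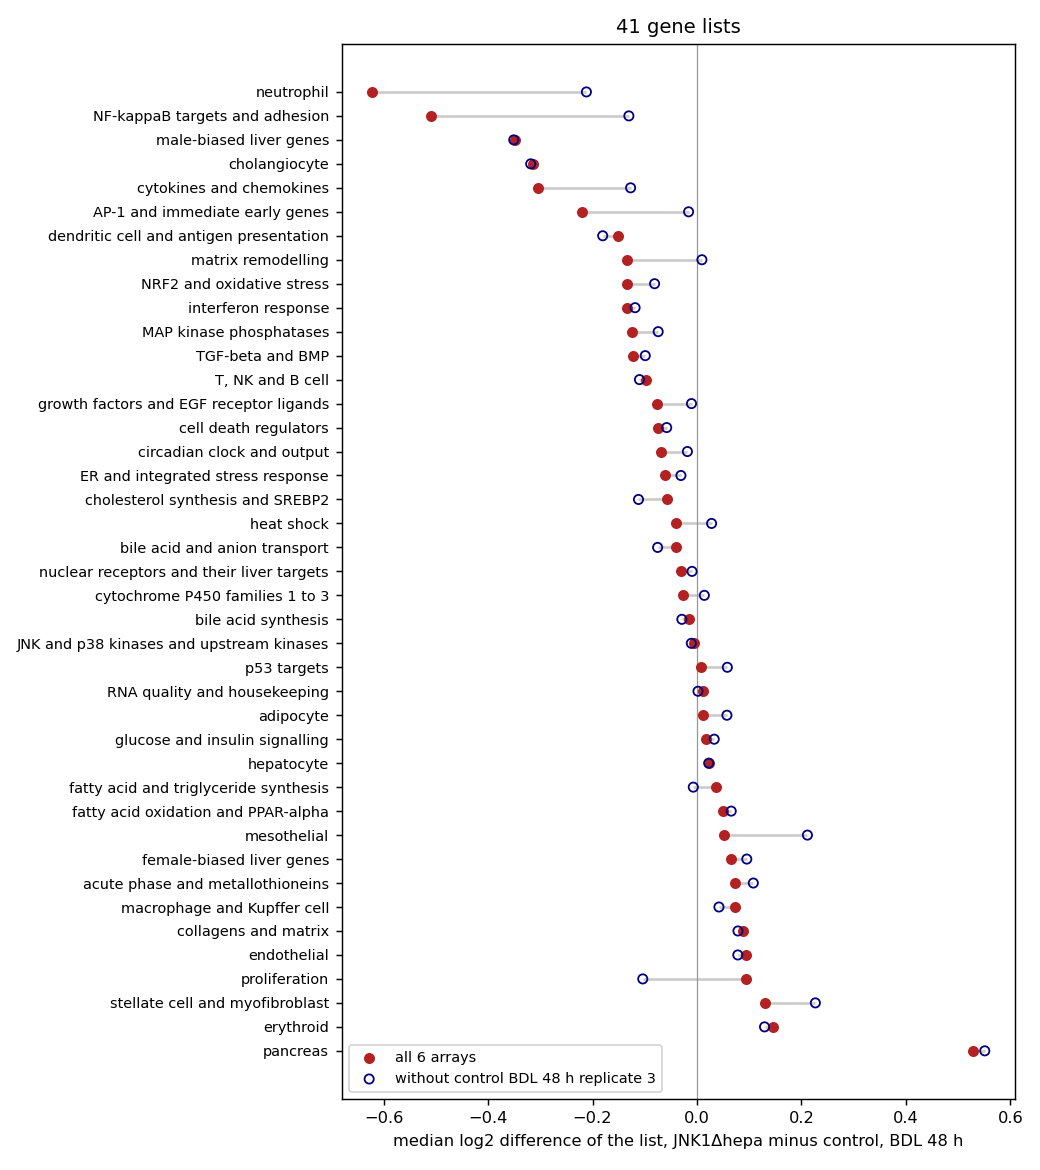
Median log2 difference, JNK1Δhepa minus control after BDL for 48 h (x axis), of 41 gene lists (y axis), over all 6 arrays (filled) and without control replicate 3 (open). The neutrophil median is -0.62 with all arrays and -0.21 without that array, the NF-κB median -0.51 and -0.13.

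JNK1Δhepa replicate 3 held transcripts of the exocrine pancreas. Ctrb1, a chymotrypsinogen, read 4.12, 4.37 and 8.03 in JNK1Δhepa livers, against 4.44, 4.42 and 4.15 in control livers. Cpa1, a carboxypeptidase, read 4.50, 4.78 and 7.45 in JNK1Δhepa livers, against 4.43, 4.58 and 4.45 in control livers. Summed over the 10 pancreas genes measured, intensities were 198 to 853 in JNK1Δhepa livers, against 185 to 202 in control livers. Without JNK1Δhepa replicate 3 the list median was 0.05 instead of 0.53. Housekeeping and RNA quality genes gave a median of 0.01 over 13 genes, with 1 lower at an unadjusted p under 0.05 by limma.

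Whether the genotype difference touched the genes that ligation itself moves was examined with sets taken from control livers at 28 d, which share no array with the 48 h comparison. The 2199 genes raised by ligation at 28 d (11.7%) had a median JNK1Δhepa difference of -0.05 at 48 h, with 17 higher and 88 lower at an unadjusted p under 0.05 by limma. The 2161 genes lowered by ligation (11.5%) had a median of -0.0002, with 31 higher and 33 lower. Over all genes the counts were 215 higher (1.14%) and 392 lower (2.08%). These sets were not refitted without control replicate 3, the highest array in the inflammatory lists, so its part in the counts was not tested. Control livers after BDL for 48 h were also set against the arrays labelled control sham 48 h. In either direction together, 1775 genes were called (9.43%). Ccl2 rose by 3.57 (adjusted p = 0.00018), Cxcl2 by 3.59 (adjusted p = 0.0097) and Jun by 2.43 (adjusted p = 3.2e-05). Of the lists, 8 of 27 cytokines and chemokines, 10 of 16 NF-κB targets and adhesion genes and 6 of 13 neutrophil markers were called higher, and 0 of each lower. That comparison and the genotype comparison share the control BDL arrays.

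The change of the genotype difference between 48 h and 28 d was tested directly. No gene passed by limma (0 of 18820, 0%), and 1338 (7.11%) had an unadjusted p under 0.05. The 5 cytokine and chemokine genes given by array above had the same sign at 28 d, with none passing. Cxcl2 differed by -2.21 at 48 h and -0.75 at 28 d, Cxcl10 by -1.66 and -1.05, Ccl2 by -1.19 and -1.35, Ccl7 by -1.10 and -0.68, and Tnf by -0.87 and -0.83. At 28 d 43 genes (0.228%) differed between JNK1Δhepa and control livers. Male-biased genes had a median of -0.35 at 48 h and 0.37 at 28 d, and collagens 0.09 at 48 h and -0.43 at 28 d. Other lists kept their sign. The NF-κB median was -0.51 at 48 h and -0.52 at 28 d, and the cytokine and chemokine median -0.30 and -0.33. The neutrophil median was -0.62 and -0.42, and the cholangiocyte median -0.31 and -0.74. No member of these lists was called at 28 d. The count of 0 for the change was 55 when control BDL 28 d replicate 1 was left out, 3 without replicate 2 and 1 without replicate 3 of that group.

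JNK1Δhepa livers were also set against JNK1-/- livers after the same 48 h of BDL, a comparison without control arrays. It gave 460 called genes (2.44%), 234 higher (1.24%) and 226 lower (1.2%) in JNK1Δhepa. The 4 called genes with the largest difference in each direction are given next. Slc6a16, a transporter-like gene of chromosome 7, read 3.79, 3.67 and 3.90 in JNK1Δhepa livers, against 10.74, 10.21 and 10.27 in JNK1-/- livers, a difference of -6.62 (adjusted p = 5.87e-15). It differed between JNK1Δhepa and control livers by 0.07. Ces1g, a liver carboxylesterase, read 11.39, 11.41 and 11.56 in JNK1Δhepa livers, against 6.20, 8.72 and 8.85 in JNK1-/- livers (difference 3.53, adjusted p = 0.000133). Car3, a carbonic anhydrase, and Chrna4, an acetylcholine receptor subunit, were higher in JNK1Δhepa by 3.50 and 3.47. Obp2a, an odorant-binding protein, Asic5, a bile acid sensitive ion channel, and Slc8a1, a sodium-calcium exchanger, were lower by log2 differences of -3.75, -3.41 and -3.36. For the organic anion transporter Slc22a26, higher by 3.54 (adjusted p = 0.00411), the JNK1Δhepa and control arrays differed by 1.17, with JNK1Δhepa replicate 1 at 9.66.

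By list, that comparison, with 1.24% of all genes called higher and 1.2% lower, called 8 of 32 fatty acid and triglyceride synthesis genes higher in JNK1Δhepa and 0 lower, with a median of 0.55, and 6 of 20 fatty acid oxidation genes lower and 0 higher, with a median of -0.16. Acacb, the acetyl-CoA carboxylase that restrains fatty acid oxidation, read 9.06, 9.18 and 9.67 in JNK1Δhepa livers, against 7.04, 7.29 and 7.23 in JNK1-/- livers (difference 2.12, adjusted p = 0.00261). Cpt1a, the carnitine transferase that admits fatty acids to mitochondria, was lower by a log2 difference of -0.56 (adjusted p = 0.0437). Of 28 proliferation genes, 3 were called higher and 0 lower, beside those same shares. They were Cdc20 and Aurka, with differences of 1.07 (adjusted p = 0.0154) and 0.89 (adjusted p = 0.0115), and Plk1, a mitotic kinase, with 1.17 (adjusted p = 0.0344). The 25 interferon response genes had 3 called higher, Oasl1, Rsad2 and Bst2, and 0 lower. The JNK1-/- mice came from a separate source, so source and genotype cannot be told apart here. Without JNK1Δhepa replicate 3 the count of 460 was 145, without replicate 1 or 2 of that group 245 and 209, and without JNK1-/- replicate 1 or 2 it was 228 and 287.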

How the data were processed

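Liver RNA was measured on 24 arrays, 3 in each of 8 groups. Per the labels' protocols, 100 ng of RNA with an integrity number over 8.0 was amplified and labelled with biotin. The deposited file holds log2 intensities, which the authors obtained with RMA, per the submitters' processing notes. RMA settings, probe positions and the build of the probe sets are not stated there.

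Of 35556 probe sets, 21218 carried 1 gene symbol, 1881 several and 12457 none. Each of 18820 symbols was represented by its brightest probe set (highest mean of 24 arrays), with symbols updated by gene number through RefSeq names on GRCm38.p6, where 33 probe sets were not found. No 2 arrays were identical. Moderated linear models were fitted with limma 3.58.1 in R 4.3.3 to 8 group means, with 16 residual degrees of freedom (prior 3.55). P-values were two-sided and adjusted by Benjamini and Hochberg across 18820 genes, with calls made below an adjusted p of 0.05. The number of arrays limits the precision. An exact permutation test of 3 against 3 arrays could not go below p = 0.1 and was not used.

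Named genes were up to 15 called genes per direction, filled to 10 with the smallest unadjusted p among genes whose groups did not overlap, up to 4 per direction of the JNK1-/- comparison, up to 4 per list by smallest p, and Mapk8, Mapk9, Mapk10 and Nnt. Predicted genes and receptor or antibody families were left out. Ctrb1, Clec2h, Erdr1, Jun, Ccl2, Hsd3b5, Elovl3, Sele and Il23a were named after their values were seen. Elovl3 also met the rule in the list of fatty acid and triglyceride synthesis, but not in the male-biased list. Outside the rule, Alb was named as a hepatocyte gene, and Oasl1, Rsad2 and Bst2 as called list members. The comparison, the lists and the rule were chosen with earlier results of these data known. Promoter sequences are RefSeq's on GRCm38.p6. The scripts were tested on simulated data. Alternatives covered normalization, filters, probe set choice, arrays in the fit, variance model, array weights, replicate number as a block, and leaving out each array.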

Additional observations from a re-analysis of the deposited data

How the results depend on the processing

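The count of 0 called genes between JNK1Δhepa and control livers after BDL for 48 h was kept under quantile normalization, centring, the filter on dim genes, every probe set, the mean over probe sets, both smaller sets of arrays, the fit without the arrays labelled control sham 48 h, the fit without JNK1Δhepa BDL 28 d replicate 1, and the trended robust variance. With array weights it was 3, all 3 lower. Leaving out each array gave 0 to 3 called, 0 to 3 lower and 0 higher. The replicate number did not pair the arrays (correlations of deviations -0.154, 0.0534 and -0.297 for numbers 1, 2 and 3), and with it as a replicate block the count was 0, with all arrays and with only the arrays compared. The 4 calls made when an array was left out had adjusted p-values of 0.0016 to 0.05 by limma, for Clec2h (-2.65), Igsf23 (-2.12), Sele (-1.24) and Il23a (-0.96).

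For the change of the difference between 48 h and 28 d, array weights gave 221 calls (128 higher, 93 lower). Nnt, Igsf23, Ceacam2, Sae1 and C5ar2 were among these calls. Leaving out an array gave 0 to 55 (0 to 21 higher, 0 to 34 lower). The replicate block gave 0. For JNK1Δhepa against JNK1-/- livers at 48 h, the 460 calls (234 higher, 226 lower) became 153 (70 and 83) with only the arrays compared, 663 with the 12 arrays at 48 h, 294 (144 and 150) without the arrays labelled control sham 48 h, 1746 (833 and 913) with array weights, 477 with the replicate block and 66 (36 and 30) with the replicate block and only the arrays compared. Leaving out an array gave 145 to 495 (56 to 243 higher, 89 to 252 lower), and 137 of the 460 genes were still called without JNK1Δhepa replicate 3. Why these counts moved was not tested.

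Signs turned for Mapk9, Mapk10 and Jun, with differences near 0, and for Ctrb1, none of them called. With centred arrays and with array weights Mapk9 was -0.0027 and -0.00046, and with quantile normalization Mapk10 was 0.0024. Leaving out each array gave -0.042 to 0.051 for Mapk9, -0.047 to 0.037 for Mapk10, -0.063 to 0.13 for Jun and -0.090 to 1.86 for Ctrb1, the lowest of Ctrb1 being without JNK1Δhepa replicate 3.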

Other observations

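Some cell types and genes fall outside the comparisons above. Of 17 T, NK and B cell markers, Mzb1, a plasma cell protein, read 4.42, 4.39 and 4.50 in JNK1Δhepa livers, against 3.93, 4.23 and 4.06 in control livers, and Cd8b1, a chain of the CD8 co-receptor, read 4.22, 4.64 and 4.35 in JNK1Δhepa livers, against 4.78, 4.80 and 4.76 in control livers. Neither passed, and the list median was -0.10. The 10 dendritic cell and antigen presentation genes had a median of -0.15, the 17 endothelial genes 0.09, the 10 mesothelial genes 0.05 and the 6 adipocyte genes 0.01. Of 7 erythroid genes, Slc4a1, the red cell anion exchanger, read 5.27, 5.85 and 6.75 in JNK1Δhepa livers, against 5.03, 4.96 and 5.24 in control livers, with a list median of 0.15.

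2 genes were singled out after their values were seen. Clec2h, a C-type lectin-related gene, read 5.50, 5.33 and 7.68 in JNK1Δhepa livers, against 8.83, 8.03 and 7.31 in control livers. JNK1Δhepa replicate 3 lay among the control arrays, and the difference was -1.89 with it and -2.65 without it. All 3 JNK1-/- arrays at 48 h read 5.98 or lower. Erdr1 read 9.60, 10.38 and 10.22 in JNK1Δhepa livers, against 7.12, 8.17 and 9.32 in control livers, a difference of 1.86 that did not pass.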
